A study of Mus musculus with 16 samples.

Results

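A set of 7 microRNAs (miRNAs) known from the stroma and the blood vessels of tissues were followed in mouse liver tumours and non-tumour livers. The mesenchymal ones were mmu-miR-199a-3p, mmu-miR-199a-5p, mmu-miR-214, mmu-miR-143 and mmu-miR-145, and the endothelial ones mmu-miR-126-3p and mmu-miR-126-5p, written without the prefix for the mouse from here on. They were chosen by name, as 7 of the 566 mouse miRNAs on the array, and 3 of them (miR-199a-3p, miR-143 and miR-126-3p) were among the 96 miRNAs bright enough to be tested. The mice were males of C3H/HeJ, an inbred strain prone to liver tumours, and the carcinogen diethylnitrosamine, which hepatocytes activate, was injected once to initiate tumours. Its dose is given as 10 or 90 µg per g, at 2 or 6 weeks of age, and phenobarbital as a diet in one place and in drinking water in another, without saying which applied to which sample. There were 7 Ctnnb1-mutated tumours from mice given phenobarbital, a tumour promoter, with 3 non-mutated control livers from mice given phenobarbital (phenobarbital controls). There were also 3 Ha-ras-mutated tumours from mice given none, with 3 non-mutated control livers from mice given none (called untreated controls for the missing phenobarbital). Ctnnb1 encodes β-catenin, the effector of Wnt signalling, and Ha-ras a GTPase upstream of the MAP kinase pathway. Whether the control livers had seen diethylnitrosamine, how many animals a group stands for and how much stroma a tumour piece held are not in the labels, so p-values measure the spread between these samples. The time on the diet is given as 27 weeks in the labels, 28 to 36 weeks in the design text and 28 days in a treatment protocol, and which of these held is likewise not settled.

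A miRNA is a short RNA that directs repressor complexes to messenger RNAs, mostly through its seed, the bases near its 5′ end. Mir199a-2 and Mir214 lie in Dnm3os, a non-coding RNA antisense to Dnm3, and are known from fibroblasts and from hepatic stellate cells, the vitamin A storing cells that become matrix-producing myofibroblasts in a damaged liver. The neighbouring genes of miR-143 and miR-145 are active in smooth muscle and fibroblasts. Mir126a lies in an intron of Egfl7 and is active in endothelial cells, where miR-126 sustains signalling by vascular growth factors. Since these miRNAs are known mainly from cells other than hepatocytes, the question was whether they fell together in tumours.

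The mature sequences below are those of the RefSeq annotation of GRCm38.p6, printed 5′ to 3′ with the seed (bases 2 to 8) in capitals, because they show which genes and which arms a probe can read. RefSeq's miR-214-3p and miR-126a-3p were taken for the array's miR-214 and miR-126-3p.
miR-199a-3p: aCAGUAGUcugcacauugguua
miR-199a-5p: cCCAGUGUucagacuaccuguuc
miR-214-3p: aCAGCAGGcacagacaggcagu
miR-126a-3p: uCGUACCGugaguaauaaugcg
These 4 seeds differ from one another. miR-199a-3p lies at chr1:162217883-162217904 (+) in Mir199a-2, within Dnm3os and Dnm3, and at chr9:21496498-21496519 (-) in Mir199a-1, within Dnm2. The mature miR-199b-3p at chr2:32318524-32318545 (+), in Mir199b within Dnm1, has the same sequence, so a miR-199a-3p value can hold the product of 3 genes and cannot be assigned to one of them. miR-214-3p lies at chr1:162223438-162223459 (+), and 5444 bases separate the hairpins of Mir199a-2 and Mir214. miR-126a-3p lies at chr2:26591402-26591423 (+) within Egfl7. Both arms of miR-199a come from one hairpin, shown here for Mir199a-2 at chr1:162217814-162217923 (+) with the 5p and then the 3p arm in capitals, since the arms differed in how they were detected.
Mir199a-2: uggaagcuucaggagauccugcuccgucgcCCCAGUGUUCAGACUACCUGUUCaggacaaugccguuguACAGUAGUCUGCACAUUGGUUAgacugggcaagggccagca

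Each sample had 1 one-colour Agilent miRNA array. Levels are log2 values of the background-subtracted signal after scaling each array to its 75th percentile over the probes detected everywhere, and signals under a floor of 24.8 (4.63 on the log2 scale) were set to it. A miRNA was called detected on an array where more than 50% of the spots of 1 of its probes were well above background. Between 83 and 117 mouse miRNAs were detected per array. The arrays lay on 3 slides. All 7 Ctnnb1 tumours shared slide 1 with Ha-ras tumour 1. Ha-ras tumours 2 and 3 were on slide 2 with untreated control 1 and phenobarbital controls 4 and 5, and the remaining controls (phenobarbital control 6, untreated controls 2 and 3) were on slide 3. Ctnnb1 tumours and phenobarbital controls therefore never met on a slide, and within slides their difference cannot be told apart from the slide. The tissue label was met: 6 of 6 hepatocyte miRNAs were detected on every array.

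The 7 miRNAs differed in how far they could be measured. miR-199a-3p and miR-126-3p were detected on 16 of 16 arrays, miR-126-5p on 8, miR-143 on 6 and miR-199a-5p on 1. No array detected miR-214 or miR-145. By group, miR-143 was detected in 1 of 7 Ctnnb1 tumours and 2 of 3 phenobarbital controls, and in 0 of 3 Ha-ras tumours and 3 of 3 untreated controls. The 1 array with miR-199a-5p was an untreated control. The scanner software has its own, looser detection flag per miRNA, and by it miR-199a-5p was detected in 1 of 7 Ctnnb1 tumours and 2 of 3 phenobarbital controls, and in 0 of 3 Ha-ras tumours and 3 of 3 untreated controls. For miR-214 the same flag was set in 1 of 7 Ctnnb1 tumours and 1 of 3 phenobarbital controls, and in 0 of 3 Ha-ras tumours and 1 of 3 untreated controls. It was set for miR-145 on no array.

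**Figure D1:**
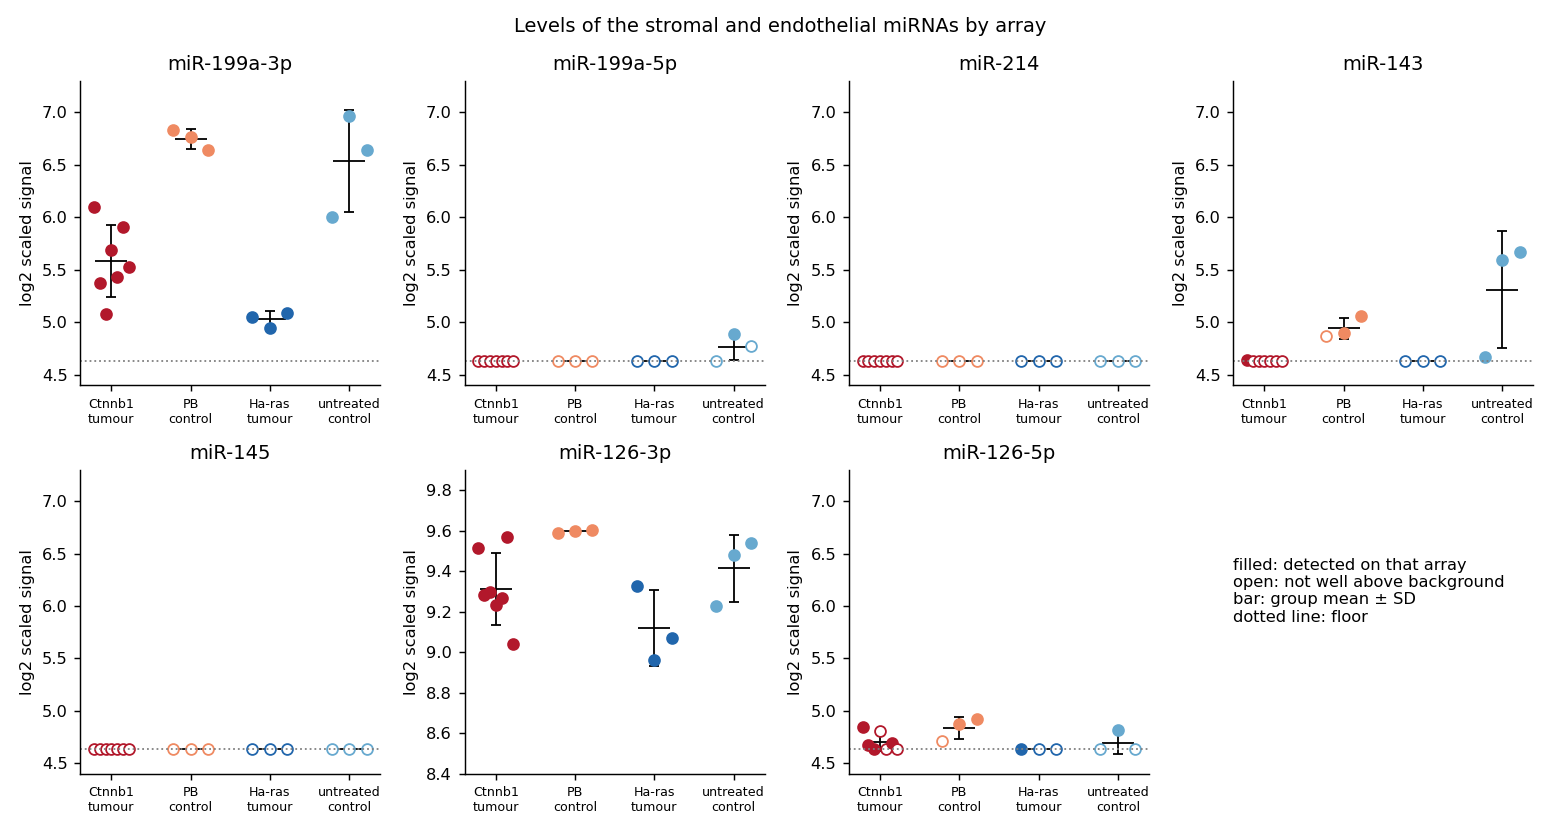
Level of each miRNA on each array (log2 scaled signal; Ctnnb1 tumours, phenobarbital (PB) controls, Ha-ras tumours and untreated controls from left to right), with filled points where it was detected, open points where it was not well above background, bars for the group mean ± SD and a dotted line at the floor of 4.63. miR-199a-3p lies lower in both kinds of tumour than in their controls, miR-126-3p has an axis of its own with a narrower range, and miR-214 and miR-145 lie at the floor on all arrays.

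miR-199a-3p, known from stellate cells and fibroblasts, was lower in both kinds of tumour than in their controls. In the Ctnnb1 tumours its log2 level was 5.07 at the lowest, 5.52 at the median and 6.10 at the highest, against 6.83, 6.77 and 6.64 in phenobarbital controls 4, 5 and 6. Every Ctnnb1 tumour lay below every phenobarbital control. The means were 5.58 ± 0.34 (SD, n = 7) in Ctnnb1 tumours and 6.75 ± 0.10 (SD, n = 3) in phenobarbital controls, a log2 fold change of -1.16 (SE 0.21, 95% interval -1.61 to -0.72; limma, Benjamini-Hochberg adjusted p = 0.00187). On the linear scale this is 2.24-fold lower, and of the 96 miRNAs tested none had a lower log2 fold change. In bulk tissue, fewer cells of a type and less of the miRNA per cell cannot be told apart. With slide as a fixed term, which links the groups only through the other arrays, the log2 fold change was -1.09 and its adjusted p 0.434, while slide as a random term gave -1.13 with an adjusted p of 0.000266 (limma). That fit estimated a correlation of -0.115 within slides, and a negative estimate of this kind lowers p-values. With normexp background correction the log2 fold change was -0.68 in Ctnnb1 tumours and -0.86 in Ha-ras tumours.

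In Ha-ras tumours 1, 2 and 3 the log2 level of miR-199a-3p was 5.05, 4.94 and 5.09, against 6.01, 6.97 and 6.64 in untreated controls 1, 2 and 3. The Ha-ras tumours lay close together and all below the untreated controls, of which replicate 1 was the lowest. The means were 5.03 ± 0.08 in Ha-ras tumours and 6.54 ± 0.49 in untreated controls (SD, n = 3 each), a log2 fold change of -1.51 (SE 0.25, 95% interval -2.04 to -0.99; limma adjusted p = 0.000509), or 2.85-fold lower. One of the 2 probes of miR-199a-3p was at the floor in all 3 Ha-ras tumours, so their spread and the fold change are partly set by the floor: with the brighter probe alone the log2 fold change was -1.61, and with the floor doubled -0.93. The -1.51 was the second lowest of the 96 log2 fold changes in that comparison. Within slide 2, with 2 Ha-ras tumours and only untreated control 1, the log2 fold change was -0.99 and missed the threshold (limma adjusted p = 0.0619), and with slide as a fixed term it was -1.31 (adjusted p = 0.0266).

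miR-199a-5p, the other arm of the same hairpins, and miR-214, its neighbour in Dnm3os, could not be tested. Their values at the floor have no order, so the signal of the brighter probe before the floor is given instead, in scaled linear units and from low to high, as a description chosen after the values were seen. For miR-199a-5p it was 7.53 at the lowest, 10.1 at the median and 17.3 at the highest in Ctnnb1 tumours, against 22.8, 24.0 and 24.6 in the phenobarbital controls. It was 7.50, 7.94 and 8.52 in the Ha-ras tumours, against 16.6, 30.1 and 35.2 in the untreated controls. In both pairs all tumours lay below all controls, as for miR-199a-3p, but most of these signals were not well above background and the floored values allow no bound on a fold change.

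For miR-214 the brighter probe gave 4.32, 8.10 and 14.8 (lowest, median and highest) in Ctnnb1 tumours, against 11.5, 13.5 and 18.5 in the phenobarbital controls, and these ranges overlap. In the Ha-ras tumours it gave 3.20, 3.30 and 6.13, against 9.43, 14.3 and 17.1 in the untreated controls, with all Ha-ras tumours below. At most 1 spot of this probe was well above background on an array, so miR-214 can be called neither present nor absent here.

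miR-143, known from smooth muscle and fibroblasts, was near the limit of detection. Its log2 level was 4.63 in all Ctnnb1 tumours, of which 5 of 7 stood at the floor itself, against 4.87, 4.89 and 5.06 in phenobarbital controls 4, 5 and 6. Every Ctnnb1 tumour lay below every phenobarbital control, but the difference missed the threshold, with a log2 fold change of -0.31 (SE 0.16, 95% interval -0.64 to 0.03; limma adjusted p = 0.272). The floor compresses this difference: with the floor halved it was -0.91 (limma adjusted p = 0.0329). Before the floor, the brighter probe gave 11.1 at the lowest, 14.6 at the median and 24.9 at the highest in Ctnnb1 tumours, against 34.4, 35.7 and 44.6 in the phenobarbital controls.

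In all 3 Ha-ras tumours miR-143 stood at the floor, against log2 levels of 4.66, 5.59 and 5.66 in untreated controls 1, 2 and 3. It fell by 0.68 on the log2 scale (SE 0.19, 95% interval -1.07 to -0.28, limma adjusted p = 0.0146). The means were 4.63 in Ha-ras tumours and 5.31 ± 0.56 in untreated controls (SD, n = 3 each). No Ha-ras tumour detected it, and with their lowest detected signals (mean of 4.82) in its place the means differed 1.40-fold. This bound leaves out the spread between samples, and untreated control 1 lay below 4.82, so it is no firm lower limit on the fall. miR-143 entered the test only because all untreated controls, the group where it was highest, detected it, so a difference from that group was built into its selection and the p is too small. The fall rested on untreated controls 2 and 3, which were both on slide 3. Untreated control 1 was close to the floor, and within slide 2, where it was set against Ha-ras tumours 2 and 3, the log2 fold change was -0.032 (limma adjusted p = 0.905). Without untreated control 2, without untreated control 3 or without Ha-ras tumour 1 the adjusted p was 0.0782, 0.0878 or 0.0527 (limma). The part of the slide in this result was not tested beyond these values. The brighter probe before the floor gave 4.80, 8.10 and 12.9 in the Ha-ras tumours, against 25.9, 64.4 and 66.9 in the untreated controls, with all Ha-ras tumours below. On slide 2 alone these signals were 8.10 and 4.80 in Ha-ras tumours 2 and 3, against 25.9 in untreated control 1, just above the floor.

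miR-145, made from the same primary transcript as miR-143, was not well above background on any array. The mean signal of its brighter probe was below 0 in every group, at -5.23 ± 1.24 in Ctnnb1 tumours (SD, n = 7), -8.19 ± 3.29 in phenobarbital controls, -5.43 ± 2.37 in Ha-ras tumours and -4.64 ± 0.95 in untreated controls (SD, n = 3 each). These values carry no information on its level.

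**Figure D2:**
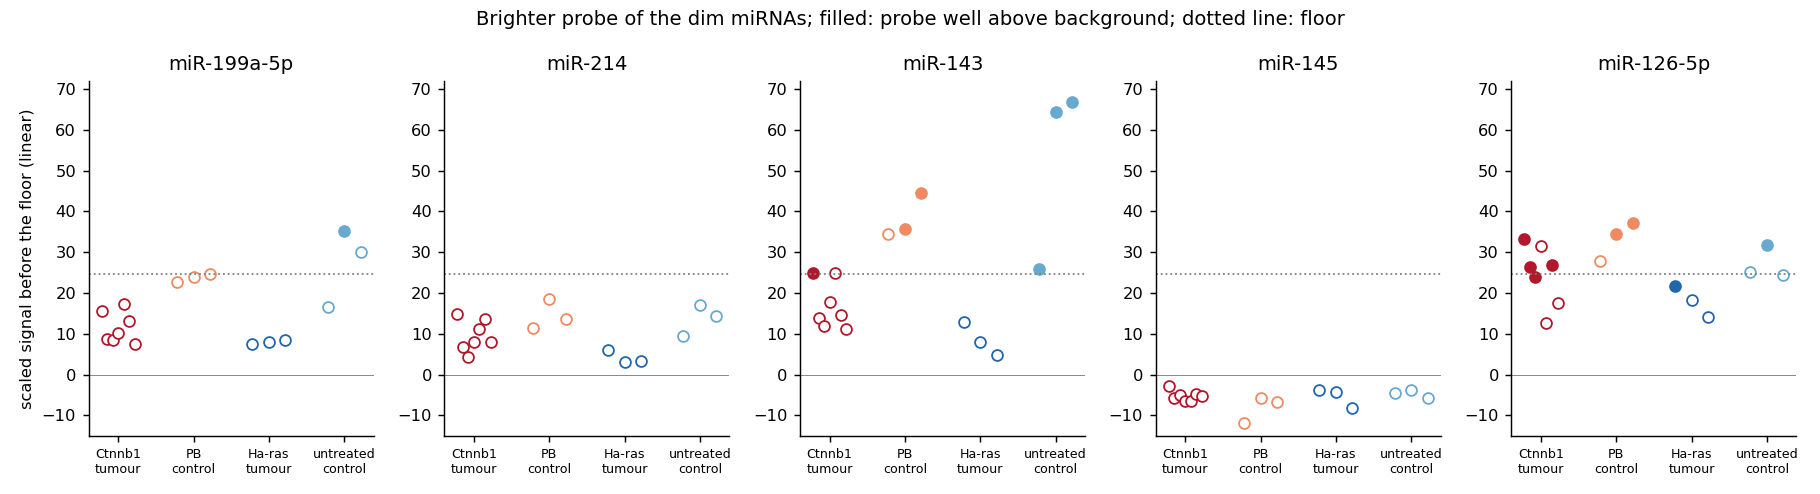
Scaled signal before the floor (linear axis) of the brighter probe of the 5 miRNAs that were not detected on all arrays, by array and group, with filled points where the probe was well above background and a dotted line at the floor of 24.8. miR-199a-5p and miR-143 lie lower in all tumours than in all controls of their pair, while the signals of miR-145 are all below 0.

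miR-126-3p, the endothelial miRNA, differed little between the groups. Its log2 level was 9.04 at the lowest, 9.28 at the median and 9.57 at the highest in Ctnnb1 tumours, against 9.59, 9.60 and 9.60 in phenobarbital controls 4, 5 and 6. All Ctnnb1 tumours lay below all phenobarbital controls, whose spread was the narrowest of the 4 groups. The log2 fold change was -0.28 (SE 0.12, 95% interval -0.54 to -0.03; limma adjusted p = 0.154), from means of 9.31 ± 0.18 (SD, n = 7) in Ctnnb1 tumours and 9.60 ± 0.01 (SD, n = 3) in phenobarbital controls, and it missed the threshold. The interval is not adjusted for the 96 tests.

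Ha-ras tumours 1, 2 and 3 had log2 levels of miR-126-3p of 9.33, 8.96 and 9.07, against 9.23, 9.48 and 9.54 in untreated controls 1, 2 and 3. These groups overlapped through Ha-ras tumour 1 and untreated control 1. The log2 fold change was -0.30 (SE 0.14, 95% interval -0.60 to 0.01; limma adjusted p = 0.141), from 9.12 ± 0.19 in Ha-ras tumours and 9.41 ± 0.16 in untreated controls (SD, n = 3 each). Its sign turned, to 0.28, when arrays were scaled over all mouse probes in place of the detected ones.

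miR-126-5p, the other arm of the Mir126a hairpin, was near the floor throughout and was not tested. Its log2 level was 4.63 at the lowest, 4.68 at the median and 4.84 at the highest in Ctnnb1 tumours, against 4.72, 4.87 and 4.92 in the phenobarbital controls, and the groups overlapped. All 3 Ha-ras tumours were at the floor, although Ha-ras tumour 1 passed the rule for detection, against 4.64, 4.81 and 4.63 in untreated controls 1, 2 and 3. Before the floor, the brighter probe gave 14.1, 18.4 and 21.7 in the Ha-ras tumours, against 24.4, 25.1 and 31.9 in the untreated controls, with all Ha-ras tumours below.

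**Figure D3:**
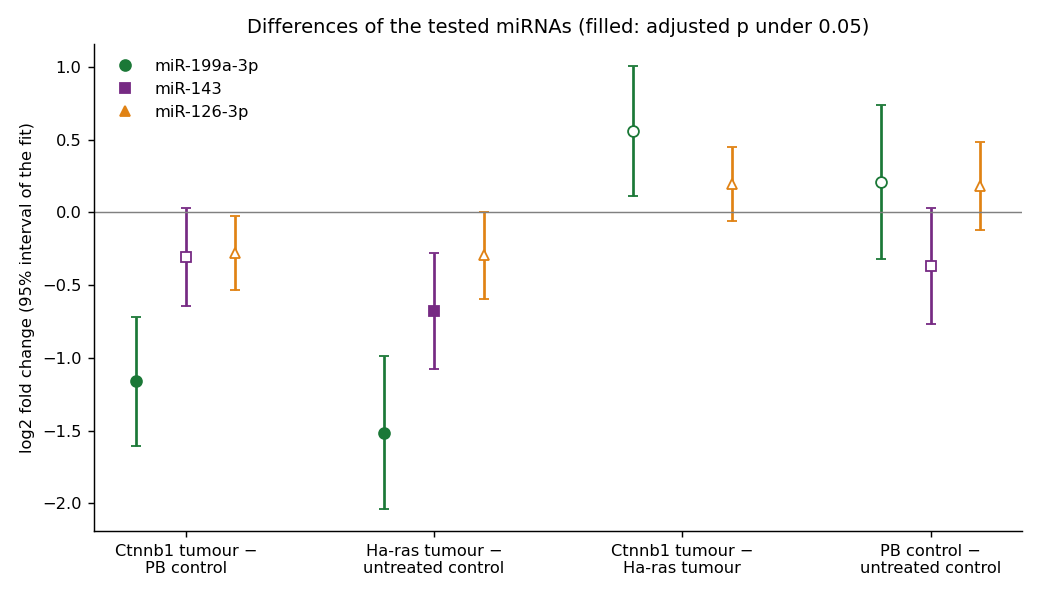
Log2 fold change of the 3 tested miRNAs in each comparison, with the 95% interval of the limma fit as bars and filled symbols where the adjusted p was under 0.05. miR-199a-3p stands at -1.16 and -1.51 in the comparisons of tumours with their controls, while miR-126-3p stands at -0.28 and -0.30. No fold change is drawn for miR-143 between the tumours, where both groups were at the floor.

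Read as a group, the tested miRNAs had lower means in both kinds of tumour but were not called together. In Ctnnb1 tumours against phenobarbital controls, 1 of the 3 tested miRNAs fell (miR-199a-3p), where 8.33% of all 96 tested miRNAs were called lower. All 3 had groups that did not overlap, with the tumours lower, against 13.5% of the 96. In Ha-ras tumours against untreated controls, 2 of 3 fell (miR-199a-3p and miR-143), where 19.8% of the 96 were called lower. Of these 2, miR-143 was admitted through the untreated controls themselves, and its call was lost within slide 2 and without untreated control 2, untreated control 3 or Ha-ras tumour 1, as given above. There, 2 of 3 had groups that did not overlap, with the tumours lower, against 26.0% of the 96. None of the 3 was called higher, against 0.0% of the 96 in Ctnnb1 tumours and 9.38% in Ha-ras tumours. With only 3 miRNAs tested, these counts support nothing about the group.

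The brighter probes before the floor allow a count over all 7 miRNAs. All Ctnnb1 tumours lay below all phenobarbital controls for 4 of 7 (miR-199a-3p, miR-199a-5p, miR-143 and miR-126-3p), against 4.06% of the 566 mouse miRNAs read the same way. All Ha-ras tumours lay below all untreated controls for 5 of 7 (miR-199a-3p, miR-199a-5p, miR-214, miR-143 and miR-126-5p), against 12.7% of the 566. For 0 of 7 did the tumours lie above the controls in either comparison, where this held for 2.3% of the 566 in Ctnnb1 tumours and 5.3% in Ha-ras tumours. Only 83 to 117 mouse miRNAs were detected per array, so the 566 are mostly undetected miRNAs and an unlike background for detected ones. Over the 96 tested miRNAs, read by their floored levels, the shares with all tumours lower were 13.5% in Ctnnb1 and 26.0% in Ha-ras tumours. The counts over the 7 are therefore a description only. The 2 arms of miR-199a share hairpins, so they are not separate pieces of evidence, and signals near 0 depend on the background subtraction.

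The estimated log2 fold change was larger in size for miR-199a-3p than for miR-126-3p in both comparisons of tumours with controls. The log2 ratio of miR-199a-3p to miR-126-3p within an array does not depend on the scaling of that array, except through the floor, and was added after the levels were seen. In Ctnnb1 tumours it was lower by 0.88 than in phenobarbital controls (difference of -0.88, or 1.84-fold), with 7 of 7 tumours below every control (exact permutation test, two-sided, p = 0.0167, the smallest p that 7 against 3 arrays allow). In Ha-ras tumours the difference from untreated controls was -1.22, or 2.32-fold, with 3 of 3 tumours below every control (exact permutation test, two-sided, p = 0.1, the smallest that 3 against 3 allow). Background correction with normexp brought the differences to -0.44 and -0.61, and a doubled floor to -0.62 and -0.63. Since miR-199a-3p was known to have the larger change when the ratio was formed, these p-values are not independent of the fits above. The Ctnnb1 tumours and the phenobarbital controls shared no slide, so their difference in the ratio cannot be told apart from the slide.

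Among the 7 Ctnnb1 tumours, which were all on slide 1, the levels of miR-199a-3p and miR-126-3p gave a Pearson correlation of 0.58 (exact permutation p = 0.168) and a Spearman correlation of 0.29 (exact permutation p = 0.556), so no co-variation was detected with 7 arrays and 1 pair tested. Without Ctnnb1 tumours 1 and 3, the arrays farthest from the median of miR-199a-3p, the Pearson correlation was 0.63 over 5 arrays. Over 9 other ways of processing, the correlation of the 7 ran from 0.10 to 0.72. Ctnnb1 tumour 1 had the highest miR-199a-3p and miR-126-5p of the 7 and was the one tumour in which miR-143 was detected. Ctnnb1 tumour 3 had the lowest miR-199a-3p, and Ctnnb1 tumour 7 the lowest miR-126-3p.

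**Figure D4:**
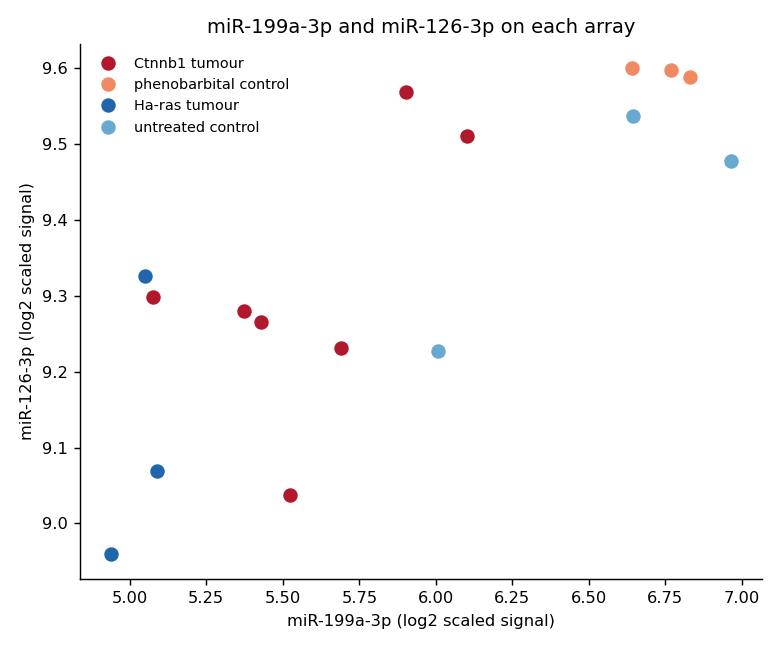
Log2 level of miR-126-3p against that of miR-199a-3p on each of the 16 arrays, coloured by group. The Ctnnb1 tumours spread from 5.07 to 6.10 in miR-199a-3p, left of all phenobarbital controls, and their miR-126-3p runs from 9.04 to 9.57, just under the phenobarbital controls at its upper end.

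Between the kinds of tumour, none of the 3 tested miRNAs was called, where 30.2% of the 96 were (limma; for miR-199a-3p the unadjusted p was 0.0174, and it was the only one of the 3 under 0.05). miR-199a-3p averaged 5.58 in Ctnnb1 tumours and 5.03 in Ha-ras tumours, with 6 of 7 Ctnnb1 tumours above every Ha-ras tumour and a log2 fold change of 0.56 (SE 0.21, 95% interval 0.11 to 1.005; limma adjusted p = 0.0555). This lay close to the threshold and fell on either side of it with the processing, and between the 7 Ctnnb1 tumours and the 1 Ha-ras tumour of slide 1 it was 0.54 (adjusted p = 0.448). Ordered by mean, miR-199a-3p was highest in phenobarbital controls, then in untreated controls, Ctnnb1 tumours and Ha-ras tumours, and neither the controls nor the tumours differed past the threshold between themselves. For miR-126-3p the log2 fold change was 0.20 (SE 0.12, 95% interval -0.06 to 0.45; limma adjusted p = 0.241), and on slide 1 alone it was -0.013. miR-143 was at or near the floor in both tumours, and no fold change is given.

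Phenobarbital itself was compared in the control livers. None of the 3 tested miRNAs was called by limma between phenobarbital and untreated controls, and 0.0% of the 96 were, with 6 of 96 at an unadjusted p under 0.05 but none of these 3. The log2 fold change of miR-199a-3p was 0.21 (95% interval -0.32 to 0.73; limma adjusted p = 0.722) and that of miR-126-3p 0.18 (95% interval -0.12 to 0.48; limma adjusted p = 0.654), with all 3 phenobarbital controls above all 3 untreated controls for miR-126-3p, as for 14.6% of the 96. For miR-143 it was -0.37 (95% interval -0.77 to 0.03; limma adjusted p = 0.559). Untreated control 1 decided that value: without it the log2 fold change was -0.69 (limma adjusted p = 0.00025), whereas within slide 2, with only that untreated control, it was 0.22. The p without untreated control 1 is too small, since miR-143 was admitted to the test only through the untreated controls, where it was highest. Its floored tumour values, which have no spread, lower the fitted error as well. The untreated controls left, 2 and 3, were both on slide 3. For miR-199a-3p the log2 fold change was -0.058 without untreated control 1, 0.79 within slide 2 and -0.16 within slide 3.

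A difference between the tumour effects of the genotypes was not detected for miR-199a-3p or miR-126-3p. The Ctnnb1 effect minus the Ha-ras effect was 0.35 for miR-199a-3p (95% interval -0.34 to 1.04; limma adjusted p = 0.607) and 0.01 for miR-126-3p (95% interval -0.38 to 0.41; limma adjusted p = 0.952). Neither was called, where 2.08% of the 96 were. For miR-143 both kinds of tumour were at or near the floor, so this difference only repeats that between the controls and is not given. Phenobarbital differs between the arms along with the mutation, and the effects of each cannot be told apart here.

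Other miRNAs described in stellate cells, fibroblasts, smooth muscle or endothelium gave a mixed picture. Of 19 listed, 11 were tested, and in Ctnnb1 tumours 3 of 11 fell and 0 rose against phenobarbital controls, where 8.33% of the 96 were called lower and 0.0% higher (median log2 fold change -0.16, against -0.05 over the 96). In Ha-ras tumours 3 of 11 fell and 2 rose against untreated controls, where 19.8% of the 96 were called lower and 9.38% higher (median -0.18, against -0.06). Whether the counts in either comparison differ from the shares over the 96 was not tested, and 11 miRNAs are few. miR-10a, a miRNA of the Hoxb cluster, fell in both, with log2 fold changes of -0.88 (SE 0.15; limma adjusted p = 0.00158) in Ctnnb1 tumours and -1.07 (SE 0.17; limma adjusted p = 0.000509) in Ha-ras tumours. In Ctnnb1 tumours the miR-10a call was lost with slide as a fixed term (-1.13, limma adjusted p = 0.135) and when arrays were scaled on all mouse probes (adjusted p = 0.688), and in Ha-ras tumours under that scaling (adjusted p = 0.348). miR-195, of the miR-15 seed family, fell in both too, with log2 fold changes of -0.78 (SE 0.13; limma adjusted p = 0.00158) in Ctnnb1 tumours and -0.47 (SE 0.16; limma adjusted p = 0.0366) in Ha-ras tumours. In Ctnnb1 tumours the miR-195 call was lost with slide as a fixed term (adjusted p = 0.135), the replicate block (0.0888), the deposited values (0.189), normexp background correction (0.110) and scaling over all mouse probes (0.688). The 2 that rose in Ha-ras tumours were miR-21, which hepatocytes and tumour cells also make, at 1.28 (SE 0.27; limma adjusted p = 0.00445), and miR-130a at 0.69 (SE 0.15; limma adjusted p = 0.00537). In Ctnnb1 tumours their log2 fold changes were 0.46 (limma adjusted p = 0.261) and 0.17 (limma adjusted p = 0.471). In Ha-ras tumours the miR-21 call was lost under 1 of 15 alternative settings and the miR-130a call under 4 of 15. Their log2 fold changes there ran from 0.85 to 1.85 and from 0.54 to 1.26. Both calls held without any single array (adjusted p up to 0.0214 and 0.0247, limma). The miR-195 call in Ha-ras tumours was lost when Ha-ras tumour 1, 2 or 3 or untreated control 2 or 3 was left out (adjusted p up to 0.144), and also with slide as a fixed term (adjusted p = 0.260), the replicate block (0.107), the deposited values (0.329) or normexp (0.193), and its sign turned, to 0.024, with scaling over all mouse probes. Of the other strands and paralogs of the 7 miRNAs, 3 were on the array and 0 of 3 could be tested.

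Over the 16 arrays, the tested miRNAs with levels most like those of miR-199a-3p were miR-10a (Pearson correlation 0.92), miR-338-3p (0.91) and miR-139-5p (0.90). Most like miR-126-3p were miR-10a (0.81), miR-195 (0.78) and miR-139-5p (0.73). The arrays fall into 4 groups, so these values carry the differences between groups. Within the 7 Ctnnb1 tumours alone, miR-22* (0.89), miR-20b (0.86) and miR-92a (0.83) were most like miR-199a-3p, and miR-10a (0.79), miR-139-5p (0.79) and miR-192 (0.77) most like miR-126-3p. Of the 16 arrays, miR-338-3p was detected on 10 and miR-139-5p and miR-22* on 13 each, so some of their values were not well above background. These correlations over shared arrays are descriptions and were not tested.

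Markers of other cell types were read beside these results. None of 6 hepatocyte, 3 leukocyte and 2 erythroid miRNAs that could be tested was called in Ctnnb1 tumours against phenobarbital controls or in Ha-ras tumours against untreated controls (limma). Of the 96, 8.33% were called in the Ctnnb1 comparison and 29.2% in the Ha-ras comparison. With so few markers, the lack of calls in Ctnnb1 tumours does not show an unchanged cell content. Against Ha-ras tumours, 2 of 6 hepatocyte markers (miR-122 and miR-101b) were called lower in Ctnnb1 tumours and 1 of 3 leukocyte markers (miR-223) higher (limma). No erythroid marker was called there, and 30.2% of the 96 were. The summed signal of the hepatocyte markers ranged from 11037 to 21350 in Ctnnb1 tumours and 18519 to 21864 in phenobarbital controls, and from 18632 to 25284 in Ha-ras tumours and 20716 to 22476 in untreated controls. That of the leukocyte markers ranged from 261 to 531 in Ctnnb1 tumours and 354 to 410 in phenobarbital controls, and from 174 to 451 in Ha-ras tumours and 233 to 445 in untreated controls, with miR-150 and miR-155 not detected on any array. That of the erythroid markers ranged from 1917 to 4181 in Ctnnb1 tumours and 3267 to 4576 in phenobarbital controls, and from 1449 to 5395 in Ha-ras tumours and 1260 to 5004 in untreated controls. Of 5 epithelial markers, at most 2 were detected on an array, and 4 of 4 striated muscle markers were never detected. The part of cell composition in the lower miR-199a-3p was not tested.

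**Figure D5:**
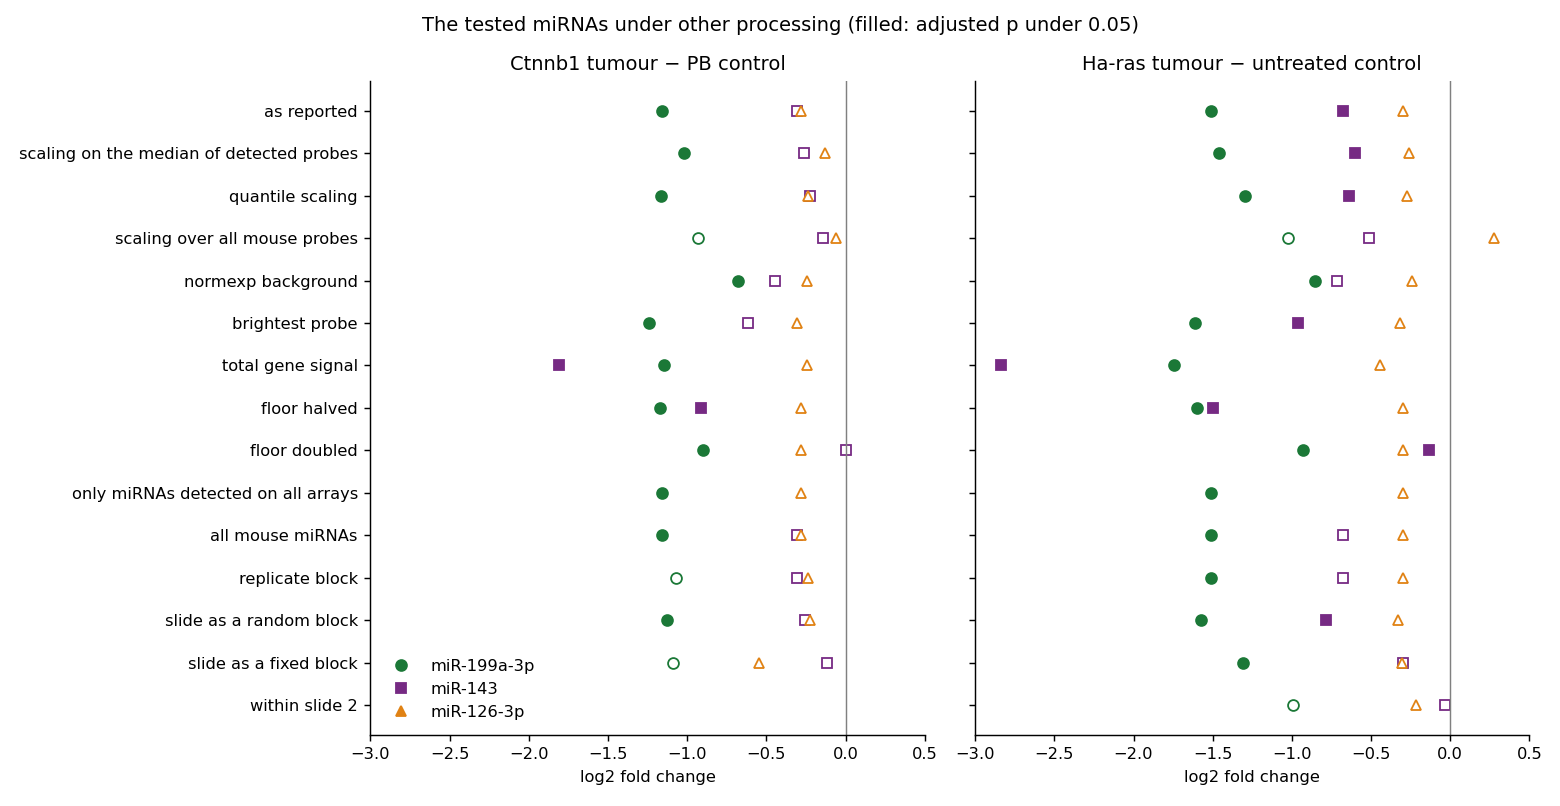
Log2 fold change of the 3 tested miRNAs as reported and under other ways of processing the arrays, for Ctnnb1 tumours minus phenobarbital controls on the left and Ha-ras tumours minus untreated controls on the right, with filled symbols where the adjusted p was under 0.05. The deposited values are not drawn, and the lowest miR-143 values, -4.47 on the left and -5.05 on the right, fall outside the axis. miR-199a-3p stays below 0 in all settings drawn, while miR-143 moves widely with the floor and the signal used and miR-126-3p is never filled.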

How the data were processed

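Agilent Feature Extraction 10.7.3.1 read the deposited spot intensity, background-subtracted and not normalised between arrays, per the file headers. Each array took 25 ng of total RNA, per the labels' protocols. The deposited table of log2 values was made by the authors with R 2.14.1, per the submitters' processing notes. How it was normalised is not stated in any source read here, and its columns have medians of 5.54 to 5.60. It lists 147 entries with values from -1 to 14.88 and served as an alternative only.

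Probe signals are means over spots that were neither controls nor outliers. Each array was divided by the 75th percentile (386 to 1248) of those 117 mouse probes that all 16 arrays detected. As the floor served the lowest detected signal of an array, at its median over the arrays. Probes of a miRNA were averaged on the log2 scale. A miRNA was tested if all arrays of some group detected it, and these 96 were fitted with limma 3.58.1 in R 4.3.3 (4 group means, 16 arrays), with Benjamini-Hochberg adjustment over the 96 and a threshold of 0.05. Values at the floor have no spread, which lowers the fitted error of miR-143. A bound sets the mean of the brighter group against the lowest detected signal of the dimmer group's arrays. The number of arrays limits the precision. No spot was saturated.

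The miRNAs and lists were chosen with earlier results of these data known. All 7 miRNAs are named, with the 3 most alike by Pearson correlation for those detected everywhere and up to 4 of each other list by smallest p. Alternatives were other scalings, floors, background corrections, signals and filters, slide and replicate number as blocks, and leaving out each array.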

Additional observations from a re-analysis of the deposited data

How the results depend on the processing

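The fall of miR-199a-3p kept its sign under all 14 alternatives in Ctnnb1 tumours (-1.25 to -0.68) and all 15 in Ha-ras tumours (-1.75 to -0.86). It also passed the threshold without any single array (adjusted p up to 0.0144 and 0.00375, limma). The call was lost with scaling over all mouse probes (-0.93, adjusted p = 0.388, and -1.02, adjusted p = 0.0656), a setting that moved the median of the 96 miRNAs to 0.10 and 0.28, from -0.05 and -0.06. In Ctnnb1 tumours it was also lost with slide as a fixed block, and in Ha-ras tumours within slide 2. The count of miRNAs called in Ctnnb1 tumours was 1 of 3 as reported (8 of all 96 lower). It was 0 with scaling over all mouse probes or slide as a fixed block (0 and 1 of 96 lower). It was 2 with the total gene signal or the floor halved (5 and 9 lower). It ranged from 1 to 2 with single arrays left out, with 2 without untreated control 1, where miR-143 passed (adjusted p = 0.00792). In Ha-ras tumours, 2 of 3 as reported, it was 0 with scaling over all mouse probes or within slide 2, and 1 with the deposited values, normexp background, only miRNAs detected on all arrays, all mouse miRNAs or slide as a fixed block; it ranged from 1 to 2 with single arrays left out. Between the tumours, 0 as reported, it was 1 with scaling by the median in place of the percentile, the total gene signal, the brightest probe, the floor halved or slide as a random block, and ranged from 0 to 1 with single arrays left out, each time through miR-199a-3p. Between the controls and for the difference of effects, the count ranged from 0 to 1 with single arrays left out, both through miR-143. As miR-143 was admitted only through the untreated controls, these calls are not independent of its selection. Untreated control 1 is in neither group of the Ctnnb1 comparison. Without it miR-143 there stayed at -0.31, and only the fitted error and adjustment changed. The cause of the other changes was not tested.

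Signs turned in these cases. miR-126-3p gave 0.28 in Ha-ras tumours against untreated controls, -0.35 between Ctnnb1 and Ha-ras tumours, -0.020 between the controls and -0.33 for the difference of the tumour effects with scaling over all mouse probes. Between the tumours it was also -0.013 with slide as a fixed block and within slide 1, and between the controls -0.021 with the total gene signal. For the difference of the effects it was also -0.00213 with normexp background and -0.24 with slide as a fixed block, and ranged from -0.066 to 0.12 with single arrays left out. miR-199a-3p between the controls was -0.16 within slide 3 and ranged from -0.058 to 0.42 with single arrays left out, and for the difference of the effects it was -0.024 with the deposited values. miR-143 between the controls was 0.22 within slide 2. miR-195 in Ha-ras tumours was 0.024 with scaling over all mouse probes. The log2 ratio of miR-199a-3p to miR-126-3p ranged from -0.93 to -0.80 in Ctnnb1 tumours with single arrays left out (exact permutation p up to 0.0556, where a phenobarbital control was missing and no smaller p was possible), and from 0.27 to 0.45 between the tumours. Over 7 processing alternatives it ran from -1.15 to -0.44 in Ctnnb1 tumours and from -1.30 to -0.61 in Ha-ras tumours. Between the controls it was -0.058 with quantile scaling and ranged from -0.15 to 0.21 with single arrays left out.

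Tumours and controls share replicate numbers, and the labels do not say whether same-numbered samples belong together. Same-numbered arrays deviated from their group means with correlations of 0.24, -0.06 and -0.77 in the phenobarbital arm and 0.58, -0.68 and -0.09 in the untreated arm. In these arms 1 of 6 and 2 of 6 arrays correlated best with their own number. No pairing was seen, but so few arrays cannot exclude one. With the replicate block 0 of 3 miRNAs were called in Ctnnb1 tumours (miR-199a-3p -1.07, adjusted p = 0.0763, limma) and 1 of 3 in Ha-ras tumours. Of all 96, 2 and 8 were called lower. No paired fit was made for the comparisons across arms.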
